A study of Bos taurus with 40 samples.

Results

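CCNE1, the gene for cyclin E1, was followed through its cDNA probe BF045665 in the extra-embryonic tissue of single bovine conceptuses collected at Day 18 of gestation. It is 1 probe among the 10184 cDNA probes of the array, and the study's QPCR primer table pairs its accession with CCNE1. The gene was chosen from earlier results of SCNT High against SCNT Low on these same arrays. Every value of a pair that holds either group is therefore a description without a test, and SCNT Med against IVP was the pair left for testing.

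The 40 arrays hold 10 conceptuses of each of 4 groups, 1 conceptus per array. IVP conceptuses came from embryos fertilised in vitro with semen of a single Holstein bull. SCNT High, SCNT Med and SCNT Low conceptuses came from nuclear transfer of ear skin fibroblasts of lines 5538, 7711 and 0029, each established from a single Holstein female and named for the success of that line after nuclear transfer. A group and its donor line cannot be told apart, and all SCNT conceptuses were female. Per the study's supplement the IVP group held both sexes, so pairs with IVP also differ in sex. All blastocysts were transferred to temporary recipient cows several at a time, and per the study's supplement fewer cows were pregnant than conceptuses were collected, so some conceptuses shared a recipient. Errors and tests here treat the conceptuses of a group as independent. The AI conceptuses were not analysed here. RNA was amplified, labelled with 33P and hybridised to nylon membranes, and each spot's brightness was taken from a phosphorscreen image.

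Cyclin E1 binds the kinase CDK2 and drives cells from G1 into DNA synthesis. Its protein is made late in G1 and removed by ubiquitin ligases once replication is under way, and cyclin E2, its close relative, has the same partner. In the mouse placenta, E-type cyclins are needed for trophoblast giant cells to copy their genome repeatedly without dividing. The extra-embryonic tissue of an elongating bovine conceptus is mostly trophoblast and endoderm, both of which proliferate at this time.

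The primers that the study's QPCR used for CCNE1 are shown because they mark the transcript to which the accession of the spot was tied. The sequence of the spotted insert itself was not used here, and QPCR values were not analysed here. The forward primer has 10 G or C among its 21 bases and the reverse primer has 11.
CCNE1 forward: agaatgaggctctgattggca
CCNE1 reverse: gtgctcgggaagaaatcacac

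The CCNE1 spot gave a signal on every array. Its brightness, in arbitrary units of the phosphorscreen image, ranged from 24.1 in the SCNT Med conceptus BC123 to 515 in the SCNT Low conceptus BC250, with a median of 73.5 over the 40 arrays. The median brightness of all cDNA spots of an array ran from 22.9 to 162, so part of that range belonged to the array. On 40 of 40 arrays it exceeded the spot of water on that membrane, by 1.69-fold to 11.7-fold. It was brighter than all 3 soybean spots, which carry plant sequence, on 32 of 40 arrays. These 32 comprised 10 of 10 SCNT Low, 9 of 10 SCNT Med, 7 of 10 IVP and 6 of 10 SCNT High arrays. On the other 8 arrays the CCNE1 signal did not exceed the brightest plant spot. The spot was 4.17 to 19.9 times as bright as its own local background, and the quantification software marked it as poor or empty on 0 of 40 arrays.

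To compare arrays, the log2 of each spot was centred on the mean of its array over the cDNA probes, so that a CCNE1 level of 0 is that mean. SCNT Low had the highest CCNE1 levels, followed by IVP, SCNT Med and SCNT High. In SCNT Low the level ran from -0.12 (BC271) over a median of 0.49 to 1.48 (BC250), with a mean of 0.53 ± 0.45 (SD, n = 10). IVP conceptuses ran from -0.66 (BF188) over a median of -0.13 to 1.12 (BF190), with a mean of 0.00 ± 0.56. SCNT Med conceptuses lay between -0.42 (BC30) and 0.70 (BC160), with a median of -0.23 and a mean of -0.07 ± 0.40. Levels in SCNT High were between -0.81 (BC241) and 0.19 (BC272), with a median of -0.37 and a mean of -0.36 ± 0.35.

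All 4 groups overlapped. A level above 0 was found in 9 of 10 SCNT Low, 4 of 10 IVP, 3 of 10 SCNT Med and 2 of 10 SCNT High conceptuses. Of the SCNT Low conceptuses, 8 of 10 were above every SCNT High conceptus, and 7 of 10 SCNT High conceptuses were below every SCNT Low conceptus. Only 1 SCNT Low conceptus, BC250, was above every IVP conceptus. The within-group SD of CCNE1 was 0.45, against a median of 0.48 over the cDNA probes, and 40.5% of the probes had a smaller one. In tissue measured in bulk, fewer cells of a type and less RNA per cell cannot be told apart.

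**Figure D1:**
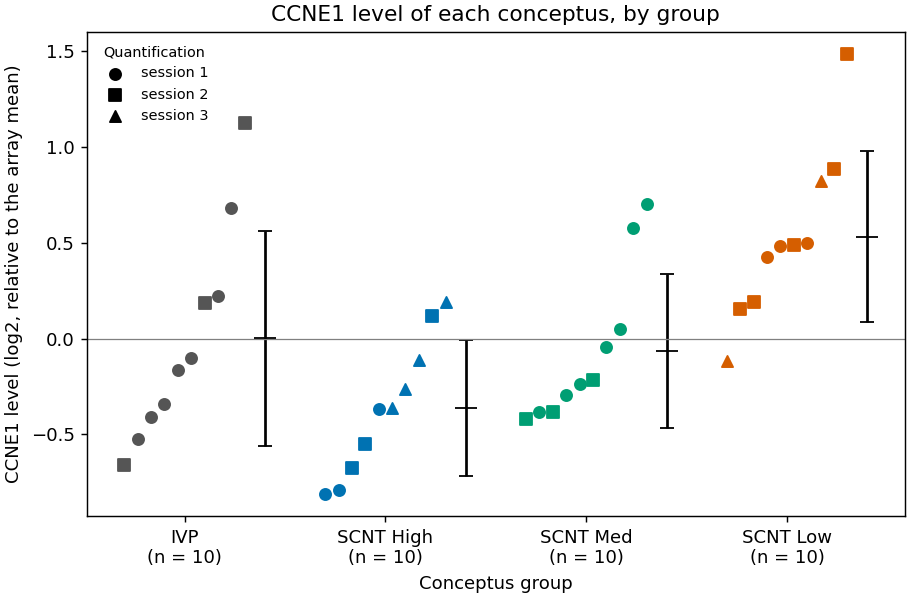
CCNE1 level of each conceptus (vertical axis, log2 of the spot brightness relative to the mean of its array) in the 4 groups. Each point is 1 conceptus, its shape gives the quantification session, points are sorted by value within a group, and the bar is mean ± SD (n = 10); SCNT Low lies highest with a mean of 0.53, SCNT High lowest with a mean of -0.36, and all groups overlap.

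SCNT Med against IVP asked whether CCNE1 differed between conceptuses of line 7711 and those of fertilised embryos. Nuclear transfer, donor genotype and sex cannot be told apart in this pair. The 10 SCNT Med conceptuses averaged -0.07 and the 10 IVP conceptuses 0.00, a difference of -0.07 (SE 0.21, limma, Benjamini-Hochberg adjusted p = 1.00 over the 10184 probes). The 95% interval of this difference ran from -0.52 to 0.38, so differences of that size in either direction were within reach of the data. A two-sided permutation test of the CCNE1 level alone gave p = 0.754. At an adjusted p under 0.10, 0.0% of the cDNA probes were called in this pair with limma, and 335 probes (3.29%) had an unadjusted p under 0.05. Among all probes, 72.3% had a larger difference in absolute value than CCNE1. The sign of the difference was not stable. It was 0.14 in the first quantification session, with 7 conceptuses in each group, and -0.56 in the second, with 3 in each. Without the IVP conceptus BF190 it was 0.057, and without BF153 it was 0.0084.

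The other pairs are given as differences of the group means with the standard error of the same fit. Between SCNT High and SCNT Low, the pair on which the gene had been chosen, the difference was -0.89 (SE 0.19), so SCNT Low was 1.86 times as bright as SCNT High on average. The SCNT High mean of -0.36 lay below the mean of the brightest plant spot in that group, -0.28, which limits this ratio. With limma, 0.0982% of the probes were called between these groups, and nothing is read from it for CCNE1. SCNT Med minus SCNT Low was -0.60 (SE 0.20) and SCNT Low minus IVP was 0.53 (SE 0.22). These 2 differences were larger than the within-group SD of 0.45. SCNT High minus IVP was -0.36 (SE 0.20) and SCNT High minus SCNT Med was -0.30 (SE 0.18), both smaller than that SD. That SD describes single conceptuses, whereas the standard errors describe the differences of means. A difference below the SD does not show that the groups were alike. The pairs share conceptuses and are not independent of each other.

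The file headers date the quantification of each membrane but name no session. Dates on adjoining days were taken here as the same session. This gave 3 sessions, and the third held only SCNT High and SCNT Low conceptuses. In each session SCNT High was below SCNT Low, with differences of -1.13 in the first (3 against 3), -1.01 in the second (3 against 5) and -0.49 in the third (4 against 2). SCNT Low exceeded IVP by 0.56 in the first session and by 0.42 in the second. For SCNT High minus IVP the values were -0.57 and -0.58 in those sessions, against -0.36 without regard to session, and the third session holds 4 SCNT High conceptuses and no IVP conceptus. SCNT High minus SCNT Med was -0.71 in the first session and -0.03 in the second. For SCNT Med minus SCNT Low the values were -0.42 and -0.98.

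The local background of the CCNE1 spot, which is the brightness of the membrane around it, differed between the groups in the same order as the spot. Centred on the array mean in the same way, it was 0.22 ± 0.46 in SCNT Low, -0.04 ± 0.44 in IVP, -0.11 ± 0.26 in SCNT Med and -0.21 ± 0.41 in SCNT High. The difference between SCNT High and SCNT Low was -0.43, and 6.20% of the cDNA probes had a larger one in absolute value. Across the 40 arrays the CCNE1 level and its local background had a Pearson r of 0.743 and a Spearman rho of 0.730, and r was 0.681 without the 2 arrays farthest from the median background. Both values come from the same image of the same membrane. Within the sessions r was 0.822 (n = 20), 0.713 (n = 14) and 0.713 (n = 6), and for deviations from the group means it was 0.694. Over all cDNA probes the median r between a spot and its own local background was 0.683, and 32.6% of the probes had a higher r than CCNE1.

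**Figure D2:**
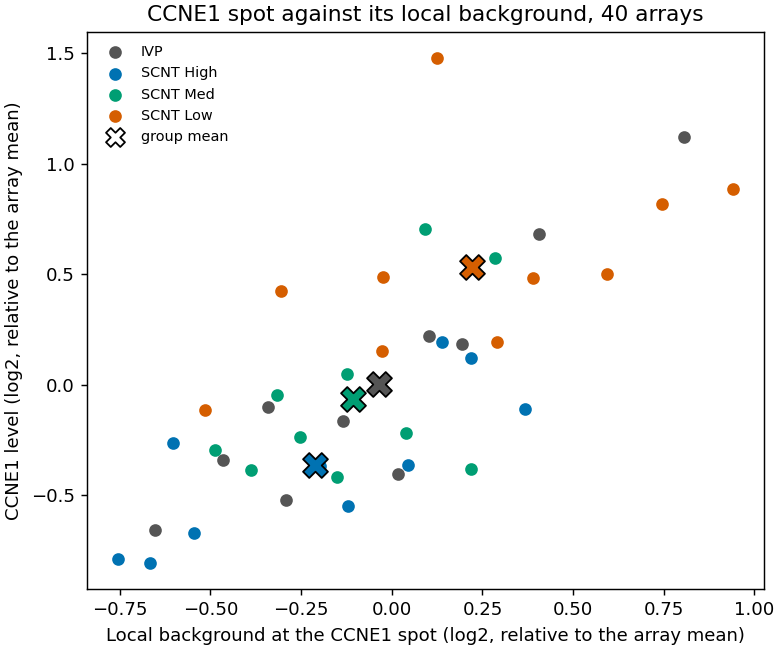
CCNE1 level (vertical axis) against the local background at the CCNE1 spot (horizontal axis), both as log2 relative to the mean of the array, for 40 conceptuses coloured by group. Crosses are group means; arrays with a brighter background around the spot have higher CCNE1 levels (r = 0.743), and the SCNT Low conceptus BC250 lies above the others of similar background.

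Taken over its local background, the CCNE1 signal differed less between the groups. The difference between SCNT High and SCNT Low was then -0.46 (SE 0.16), and -0.34 without BC250, against -0.89 for the spot alone. The sign was the same in each session, with -0.36, -0.60 and -0.36. SCNT Low minus IVP became 0.27 (SE 0.16) and SCNT Med minus SCNT Low became -0.27 (SE 0.18), and SCNT High minus IVP became -0.19 (SE 0.12). SCNT High minus SCNT Med became -0.19 (SE 0.14), and its sign turned between sessions, with -0.34 in the first and 0.16 in the second. For SCNT Med minus SCNT Low the values in those sessions were -0.02 and -0.76. In SCNT Low the spot of BC250 was 19.9 times as bright as its background, whereas the other 9 conceptuses had ratios of 6.72 to 10.9. SCNT High ratios ran from 4.17 to 8.03. The part of the local background in the group differences was not tested.

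The spots that adjoin CCNE1 on the membrane behaved in a similar way. Of the 5 cDNA probes with the highest Pearson r with CCNE1 over the 40 arrays, 3 were adjoining spots. BF041700, immediately beside CCNE1 in the same row, had the highest r of all probes at 0.724, followed by its neighbour BF044505 in the next row at 0.675. BF041485, directly across in the preceding row, had 0.633. The other members of the top 5 were BF041299 at 0.648 and BF040423 at 0.621, and they lay 4 and 5 positions away. Most of these spots were dim. BF041700 was brighter than water on 11 of 40 arrays, BF044505 on 19, BF041299 on 21 and BF040423 on 10, and only BF041485, with 36, was above water on nearly all arrays. Their r with CCNE1 is thus largely that of spots near background. None of these accessions is paired with a gene in the tables used here.

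All 8 adjoining spots correlated positively with CCNE1, with r from 0.280 to 0.724 and a median of 0.497. The lowest r of the 8 belonged to BF044652, the spot on the other side of CCNE1 in its row, whose own level averaged from 3.58 to 4.05 in the 4 groups. At 2 positions the median r was 0.349 over 16 spots, and at 6 positions it was 0.265 over 48 spots. Over the 10015 cDNA probes farther away the median was 0.00, and 50.3% had an r above 0. For deviations from the group means the adjoining spots had a median r of 0.539. Such likeness between neighbours was not particular to CCNE1. The median r between adjoining cDNA spots was 0.506 over the whole membrane, and for 30.1% of the probes the most similar probe was an adjoining spot. As many adjoining spots among the 5 most similar probes as CCNE1 had were found for 7.75% of the probes.

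**Figure D3:**
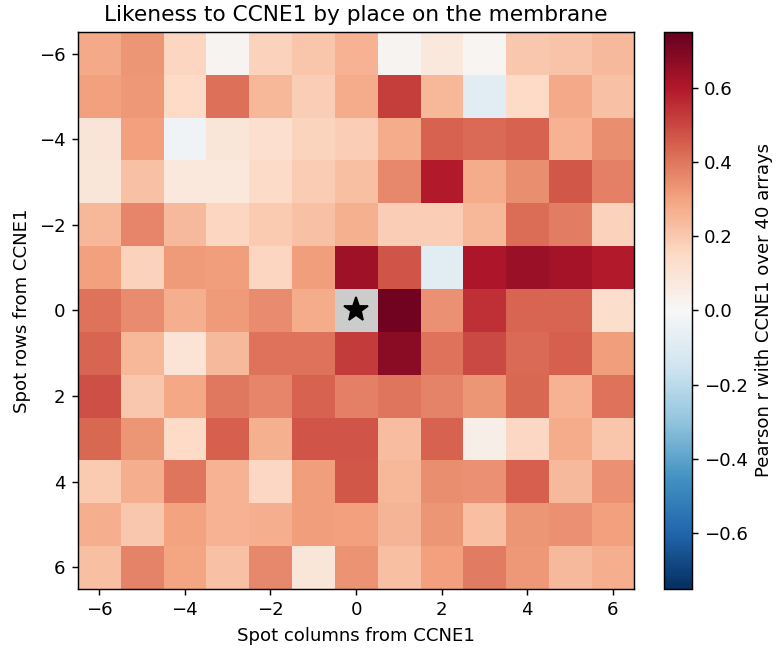
Pearson r of each spot with CCNE1 over 40 arrays, by its place on the membrane relative to CCNE1 (star), in spot rows and columns. Red is a positive and blue a negative r; the adjoining spots range from 0.280 to 0.724, and the median falls to 0.265 at 6 positions.

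The mean of the 8 adjoining spots also differed between groups, being -0.36 ± 0.26 in SCNT Low, -0.38 ± 0.38 in IVP, -0.58 ± 0.28 in SCNT High and -0.60 ± 0.37 in SCNT Med. SCNT Low and IVP differed by 0.02 in this mean and SCNT High and SCNT Med by 0.01, far less than the SDs. For the adjoining mean, SCNT High minus SCNT Low was -0.23. It was negative for 8 of 8 spots singly, as for 49.4% of all cDNA probes, but 4 of the 8 were brighter than water on fewer than 20 of 40 arrays. After subtraction of the adjoining mean from the CCNE1 level of the same array, SCNT High minus SCNT Low was -0.67 (SE 0.16) and SCNT Low minus IVP 0.51 (SE 0.17), while SCNT Med minus SCNT Low became -0.36 (SE 0.17). SCNT High minus IVP became -0.16 (SE 0.15), and SCNT Med minus IVP changed sign to 0.15 (SE 0.16). This subtraction was chosen after the data were seen. The part of the place on the membrane in the differences was not tested.

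**Figure D4:**
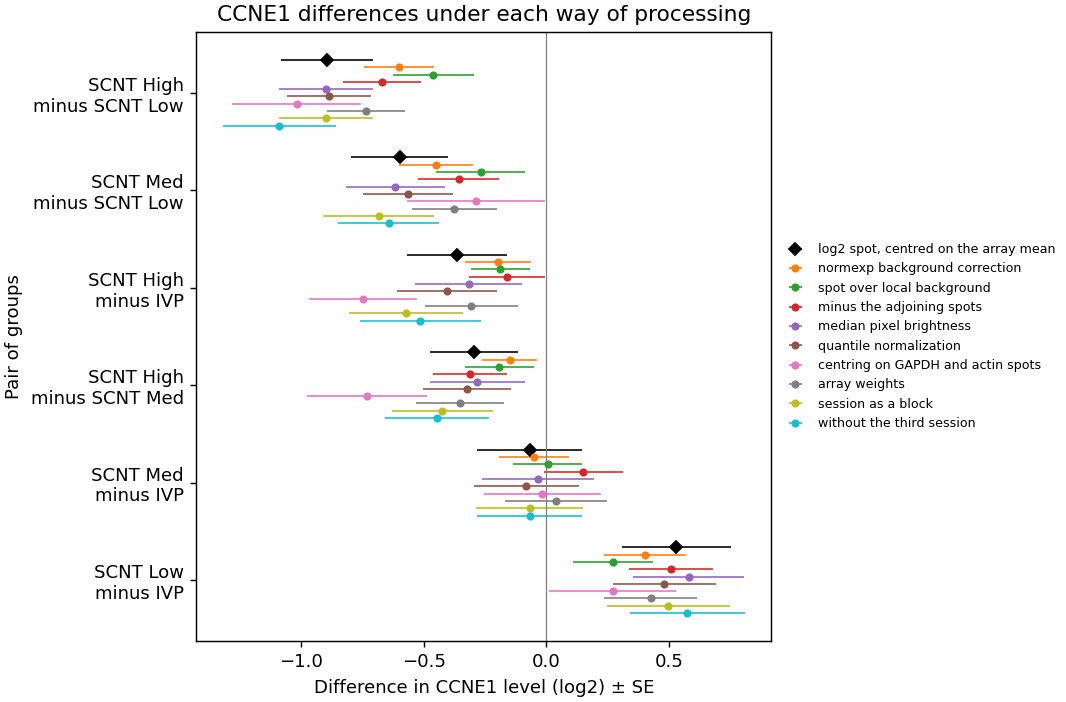
Difference in CCNE1 level (horizontal axis, log2, ± SE from limma) for the 6 pairs of groups, under the main processing (black diamonds) and 9 other ways of processing (coloured points). The difference SCNT High minus SCNT Low is negative in all of these, from -1.09 to -0.46, and SCNT Med minus IVP lies on either side of 0.

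The probes most unlike CCNE1 were BF045005 with an r of -0.529, CR553301 with -0.523, BM366490 with -0.517, CR550860 with -0.499 and BM366123 with -0.490. They lay between 60 and 80 positions from CCNE1. Their order depended on the measure, since 2 of these 5 were among the lowest 5 by Spearman rho and 0 of 5 for deviations from the group means. For CR553301 the rho was -0.305. Of the 5 most similar probes, 4 were kept with rho, 3 with deviations from the group means and 1 with signals over local background.

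The genes of the QPCR primer table were examined as the named genes of the study, although several had been selected on the same group differences as CCNE1. Of the other 15 genes, 11 had a negative r with CCNE1 over the 40 arrays and 4 a positive one. Among all other cDNA probes 51.1% had an r above 0. The median over the 15 genes was -0.192, against 0.00 for all other probes. The lowest r of the 15 was that of MSH3, a DNA mismatch repair gene, at -0.465, the 13th lowest of all probes. Its mean level was 1.00 in SCNT Low and 2.62 in SCNT High, the reverse of CCNE1. BIN3, which encodes a protein that binds curved membranes, had an r of -0.367, and PGAM5, a mitochondrial phosphatase gene, -0.348. Both had higher mean levels in SCNT High than in SCNT Low, by 0.95 for BIN3.

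Pooled within groups, these relations were weaker. For deviations from the group means, r was -0.266 for MSH3, -0.110 for BIN3 and -0.088 for PGAM5, and the median over the 15 genes was -0.067. In single groups the sign differed. For BIN3 r was -0.642 in IVP, -0.141 in SCNT Med, 0.564 in SCNT High and 0.751 in SCNT Low. In that order it was -0.488, -0.121, 0.684 and 0.405 for PGAM5, and -0.496, -0.325, 0.225 and -0.258 for MSH3. The highest r within groups was 0.280, for LHFPL2, a gene for a membrane protein of the tetraspan type. EED, which encodes a core subunit of the Polycomb complex PRC2, had -0.262 within groups and -0.048 over all 40 arrays. ASF1A, a histone chaperone gene that acts during chromatin assembly on replicated DNA, had -0.057 over the arrays and -0.067 within groups. WNT5B, a secreted signalling protein gene, had -0.232 and -0.109, and DFFA, an inhibitor of the apoptotic DNase, had 0.119 and 0.024. In SCNT High the mean DFFA level, -2.21, was also below that of water. No other gene of the G1/S transition could be tied to a probe.

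**Figure D5:**
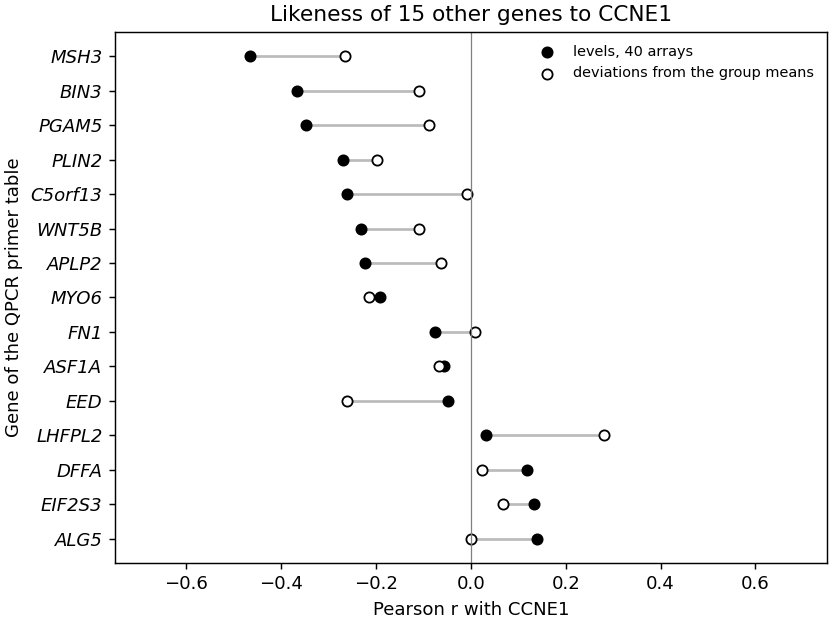
Pearson r of 15 genes with CCNE1 (horizontal axis), over the levels of 40 arrays (filled circles) and over deviations from the group means (open circles). The most negative gene over the arrays, MSH3, moves from -0.465 to -0.266 within groups, and the median of the 15 from -0.192 to -0.067.

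Markers of the cell types in the tissue were looked at beside CCNE1. FN1, the fibronectin gene, and APLP2, a gene of the amyloid precursor family, were taken as endoderm genes. The FN1 spot was brighter than water on 40 of 40 arrays and the APLP2 spot on 39 of 40. PLIN2, a lipid droplet gene linked to trophoblast giant cells in the mouse, was brighter than water on 39 of 40. So was the control spot of POU5F1, a pluripotency gene of the epiblast, which had been dissected away with the embryonic disc. Mean FN1 levels were 1.38 in SCNT Low, 1.45 in SCNT High, 2.01 in IVP and 2.69 in SCNT Med, which is not the order of CCNE1. PLIN2 averaged -0.74 in SCNT Low, -0.52 in SCNT High, -0.43 in IVP and 0.09 in SCNT Med. APLP2 averaged -0.29 in SCNT Low, 0.02 in IVP, 0.04 in SCNT High and 0.48 in SCNT Med. POU5F1 averaged -0.05 in SCNT Low, -0.15 in SCNT Med, -0.23 in IVP and -0.39 in SCNT High. The brightest plant spot averaged -0.40 in SCNT Low, -0.39 in IVP, -0.38 in SCNT Med and -0.28 in SCNT High. PLIN2 averaged below it in all groups but SCNT Med, and POU5F1 in SCNT High only, so those means did not exceed plant signal. The CCNE1 mean of SCNT High, -0.36, was below the brightest plant spot of that group too. Over all arrays CCNE1 had an r of -0.075 with FN1, -0.223 with APLP2 and -0.269 with PLIN2. Within single groups of 10 conceptuses its r with FN1 was 0.658 in IVP, 0.081 in SCNT Med, -0.144 in SCNT High and -0.821 in SCNT Low, and for deviations from the group means it was 0.0087. The part of cell composition in the CCNE1 levels was not tested.

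The scale on which arrays were compared bore on some pairs. The 10 GAPDH and 10 actin spots averaged 3.14 in SCNT High, 3.02 in SCNT Low, 2.76 in IVP and 2.71 in SCNT Med. Centring on these spots shifts all probes, CCNE1 among them, by -0.38 for SCNT High minus IVP and by -0.43 for SCNT High minus SCNT Med. On that scale the CCNE1 differences were -0.75 (SE 0.22) and -0.73 (SE 0.24). SCNT Low minus IVP was 0.27 (SE 0.26) and SCNT Med minus SCNT Low was -0.29 (SE 0.28), both about as large as their standard errors. The CCNE1 level did not follow the overall brightness of the array (r = 0.043) or the water spot (r = -0.118).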

How the data were processed

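Extra-embryonic tissue of 40 conceptuses was measured on nylon cDNA arrays. The authors deposited the intensity of every spot and that of its surroundings, the local background, as quantified with ImaGene 5.5 and neither subtracted nor normalized. The deposited files also give the shape regularity of each spot as a fraction, which was not used for any result, and marks for poor or empty spots. The authors deposited a table of processed log2 values too, whose differences between arrays equal those of the log2 spot brightness (slope 1.00 over 10184 probes). Its columns have medians from -0.157 to 0.0598, and the methods say that the data set, with the AI arrays, was mean-centred. Whether its probes were centred over all those arrays could not be checked on the 40 arrays used here.

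Here the mean of the log2 brightness over the 10184 cDNA probes was subtracted from each array, and tests did not include the 30 internal controls or the 154 unnamed spots. Pairs of groups were fitted by lmFit and eBayes (limma 3.58.1, R 4.3.3, 20 arrays a pair), with Benjamini-Hochberg adjustment over all cDNA probes and calls at an adjusted p under 0.10. The methods name SMVar, which was not at hand. The 95% interval uses the standard error of that fit with the residual degrees of freedom of the arrays. The permutation test (100000 resamples, two-sided) and the correlations were computed in Python with scipy 1.17.1, and the correlations carry no p. The fit was tested on simulated data.

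The gene, the lists and the tests were chosen with earlier results of these data known. The text names CCNE1, the 5 probes with the highest and the lowest r with it, the other 15 genes of the QPCR primer table, the GAPDH, actin, water, plant and POU5F1 control spots and the 8 adjoining spots. Lists of G1/S genes and further cell type markers were planned, but no table used here pairs their genes with probes. Alternatives were background correction by normexp (offset 50), spot over local background, quantile normalization, centring on the array median or on GAPDH and actin, median pixel brightness, the processed table, array weights, the session as a block or without the third session, leaving out the 25% dimmest probes, all 4 groups in one model, thresholds of 0.05 and 0.20, and leaving out each array. Subtraction of neighbouring spots, and leaving out BC250 over local background, were added after the data were seen. The number of arrays limits the precision. Which conceptuses shared a recipient is not given in the sources used here.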

Additional observations from a re-analysis of the deposited data

Results flagged for a closer look

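Among 48 sets of 10 arrays examined, in which the highest or lowest array was compared with the nearest other, 4 stood apart by more than Dixon's 95% critical value for the gap relative to the range. Chance alone gives about 1 in 20 such sets. For CCNE1 over its local background, the SCNT Low array BC250 stood at 4.32 on the log2 scale and the nearest other at 3.45. The level of the adjoining spot BF041700 was -2.87 on the IVP array BF188, with the nearest other at -2.11. On the same array the adjoining spot BF039041 was at -3.30, with the nearest other at -2.51. BF188 was also the IVP array with the lowest CCNE1 level. The adjoining spot BF044652 was at 5.51 on the SCNT High array BC245, with the nearest other at 4.15. The CCNE1 level itself had no array standing apart in this way in any of the 4 groups.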

How the results depend on the processing

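For SCNT Med minus IVP (-0.07), the sign turned, with 0.0049 over local background, 0.040 with array weights, 0.15 minus the adjoining spots and 0.0074 minus the spots 2 positions away. Leaving out 1 array gave -0.15 to 0.057, and the sign also turned without BF153 (0.0084). The difference passed no threshold under any alternative run, and limma called 0 probes under each of the 37 settings counted for this pair. These settings are not all separate fits. The other thresholds reuse the main fit, and leaving out the third session removed no array of this pair. Subtraction of neighbouring spots changed the values of CCNE1 alone. SCNT High minus SCNT Low (-0.89) moved to -0.46 over local background, -0.34 without BC250 in addition and -0.60 with normexp, and leaving out 1 array gave -0.97 to -0.79. The number of probes called in that pair was 10, and between 0 and 43 under the alternatives. SCNT High minus SCNT Med (-0.30) moved to -0.73 with centring on GAPDH and actin and to -0.15 with normexp, and leaving out 1 array gave -0.36 to -0.21. The ranges without 1 array were -0.44 to -0.24 for SCNT High minus IVP, 0.42 to 0.65 for SCNT Low minus IVP and -0.68 to -0.49 for SCNT Med minus SCNT Low. All pairs but SCNT Med minus IVP kept their sign under all alternatives. SCNT Med minus SCNT Low (-0.60) was -0.37 with array weights. With the session as a block SCNT High minus IVP was -0.57 and SCNT High minus SCNT Med -0.42, to which the 4 SCNT High arrays quantified in session 3 add nothing, as neither IVP nor SCNT Med has an array there. Of the 5 probes most like CCNE1, 3 were shared with the list from deviations from the group means, 3 with deviations from the means of group and session, and 1 with signals over local background. The cause was not tested. No paired analysis was possible because the replicate numbers only follow the order of the arrays. Signals near the plant spots limit what the dimmest CCNE1 values can show.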
